A study of Homo sapiens with 32 samples.

Results

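Metallothioneins are small cysteine-rich proteins that hold zinc and copper, and SLC30A1 is the plasma membrane transporter that moves zinc out of the cell. The group described here held 10 genes chosen by symbol, namely the metallothioneins MT2A, MT1A, MT1E, MT1F, MT1G, MT1H, MT1M and MT1X, the transcription factor MTF1 and SLC30A1. Of these, 9 had a probe on the array, 1 each, out of 16591 genes with a named probe. No probe was named for MT1A. The probes of MT1E and MT1H were too dim to pass the filter described below, which left 7 members among the 10598 genes tested. MT2A was the only member tested whose difference in response between the compounds was called. Its level was higher under the inactive compound than under vehicle in all 8 pairs of arrays matched by time and title letters. That count was not made over all genes, and some of the pairs hold arrays whose labelled time is in doubt. The average change under the inactive compound did not pass the test (limma, adjusted p = 0.736). Under the active compound the MT2A level of each treated array was below every vehicle array of its time at 24 h and 48 h, as for 15.1% and 15.0% of genes. The difference in response was -0.51 on the log2 scale (standard error, SE, 0.09) on average over the times. It was not called with arrays scaled to a common median. The compounds were run as separate experiments, so compound and experiment cannot be told apart. MT1G fell under the active compound at 24 h, by a test that several other settings did not pass. None of the other 6 members tested passed against vehicle.

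The arrays measured RNA of PC-3, a long-established line of human prostate adenocarcinoma cells, from flasks given vehicle or 1 of 2 related compounds for 10, 24 or 48 h. Cyclophosphamide, called inactive in the labels, is a prodrug that liver enzymes oxidise, and 4-hydroperoxycyclophosphamide, called active, carries a hydroperoxy group on the ring and breaks down in medium to the 4-hydroxy metabolite without those enzymes. The active compound was given at 5.5 µM. The labels read as if the inactive one had the same dose, whereas the design text names a dose for the active compound alone. The compounds were tested in separate experiments, each of 16 single-colour Illumina bead arrays that include vehicle arrays of their own. For the active compound 3 vehicle arrays stood against 2 treated ones at 10 h, 3 against 2 at 24 h and 3 against 3 at 48 h. For the inactive compound 3 stood against 3 at 10 h, 3 against 3 at 24 h and 2 against 2 at 48 h. All groups share the same line, so nothing is said here of other prostate cells. Separate cultures are not stated for the arrays of 1 group, and the spread that a p-value measures may then be technical.

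In human cells zinc binds the fingers of MTF1, which then enters the nucleus and binds metal response elements, short DNA motifs that sit in several copies in metallothionein promoters. Its targets include the metallothioneins and SLC30A1, so that a rise in free zinc raises both a zinc store and a route of export. Metallothionein genes also respond to copper, cadmium, glucocorticoids and oxidants, and normal prostate epithelium is known for high zinc that is lost in prostate cancer. The MT1 genes and MT2A lie in a cluster on chromosome 16, and MTF1 and SLC30A1 lie on chromosome 1. The MT1 genes are close copies of each other. Probe sequences were not used here, so RNA of one MT1 gene may also have been read by the probe of another, and each value below is that of the probe named for the gene.

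The windows before the transcript start were read from RefSeq (GRCh38.p14) to show how the members differ in the motif that MTF1 binds. A window was found for 5 members, MT2A, MT1X, MT1H, MTF1 and SLC30A1. Those of MT2A (chr16:56608334-56608583, plus strand), MT1X (chr16:56682220-56682469, plus strand) and SLC30A1 (chr1:211579162-211579411, minus strand) are printed 5′ to 3′ on the strand of the gene because the results turn on these genes. Capitals mark the cores of metal response elements on either strand.
MT2A: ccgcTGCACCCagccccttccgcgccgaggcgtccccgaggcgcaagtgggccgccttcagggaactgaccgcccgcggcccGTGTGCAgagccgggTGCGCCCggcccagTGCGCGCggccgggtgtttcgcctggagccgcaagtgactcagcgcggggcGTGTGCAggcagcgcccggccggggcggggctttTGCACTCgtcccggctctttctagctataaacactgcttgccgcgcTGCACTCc
MT1X: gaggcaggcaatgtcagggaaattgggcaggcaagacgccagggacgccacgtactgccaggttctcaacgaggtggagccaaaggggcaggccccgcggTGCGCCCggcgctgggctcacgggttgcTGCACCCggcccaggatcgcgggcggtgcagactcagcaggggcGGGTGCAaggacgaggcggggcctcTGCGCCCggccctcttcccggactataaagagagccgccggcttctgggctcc
SLC30A1: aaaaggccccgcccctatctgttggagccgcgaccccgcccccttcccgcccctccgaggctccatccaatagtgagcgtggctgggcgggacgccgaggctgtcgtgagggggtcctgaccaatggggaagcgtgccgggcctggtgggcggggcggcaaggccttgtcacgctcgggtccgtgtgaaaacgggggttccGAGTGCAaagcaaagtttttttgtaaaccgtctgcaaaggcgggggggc

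The motifs searched were TGCACNC and TGCGCNC on both strands, where N is any base. The 250 bases before the start of MT2A held 7 cores, 5 on the strand of the gene and 2 on the other. The window of MT1X held 4 cores, that of MT1H 8, that of SLC30A1 1 and that of MTF1 0. Of 35116 RefSeq windows of the same length, 24.8% held at least 1 core and 0.37% held at least 4. The metallothionein windows therefore held more cores than nearly all other windows, and the window of SLC30A1 was like many others. A match describes the letters only, and no binding was measured here.

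**Figure D1:**
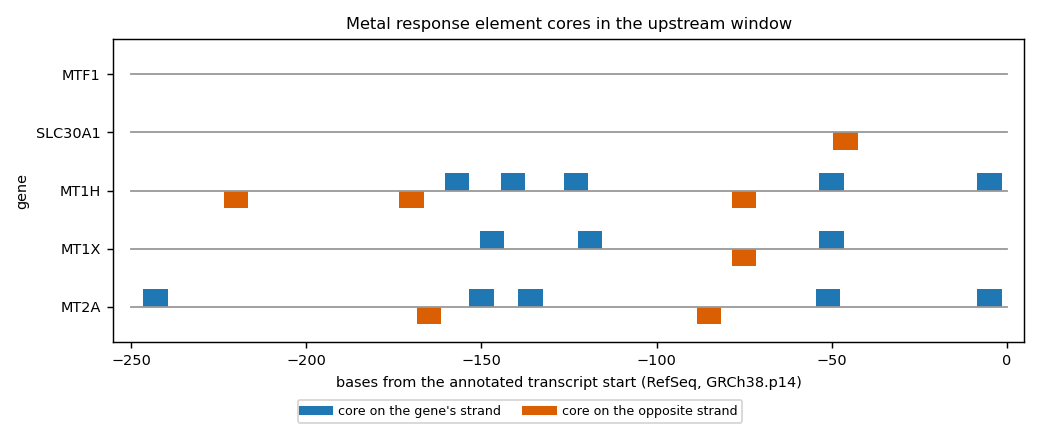
Position of each metal response element core in the 250 bases before the transcript start of the 5 members with a RefSeq window, with cores on the strand of the gene above the line and cores on the opposite strand below it. MT1H has 8 cores, MT2A 7, MT1X 4, SLC30A1 1 and MTF1 0.

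The unit below is the log2 of the deposited intensity after background correction and quantile normalization over the 32 arrays, and a change is a difference between 2 group means on that scale. The 75th percentile of the deposited intensity was 431 to 656 on arrays of the active-compound experiment and 275 to 416 on those of the other, and no 2 arrays held identical values. The median residual SD over genes was 0.11 for the active compound's arrays and 0.19 for the inactive compound's, so the SE of a change was mostly larger for the inactive compound. For 4 arrays of the inactive-compound experiment, the third vehicle and the third treated array at 10 h and at 24 h, the position along the axis from 10 h to 24 h that the other arrays define was nearer to the time they are not labelled with. The averages of the members for the inactive compound, which rest on these 4 arrays of doubtful time, are also given without them, as are the MT2A changes at 10 h and 24 h. The keratins KRT8, KRT18 and KRT19 and the epithelial adhesion gene EPCAM were at the 92.1st to 98.1st percentile of probes, whereas the adhesion gene CDH1 was at the 23.1st. Markers of fibroblasts, leukocytes and endothelium lay between the 3.76th and the 56.2nd percentile.

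Among the members MT2A was at the 99.6th percentile of all probes by its mean over the arrays, MT1X at the 93.9th and MT1F at the 85.8th. SLC30A1 was at the 67.7th and MTF1 at the 65.8th percentile. MT1G and MT1M were nearer the middle, at the 52.7th and 47.0th percentile. The probe of MT1E was at the 26.6th and that of MT1H at the 1.22nd, below the 60% of probes that were kept by mean level. These places rank probe signals, which depend on the probe as well as on the RNA.

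**Figure D2:**
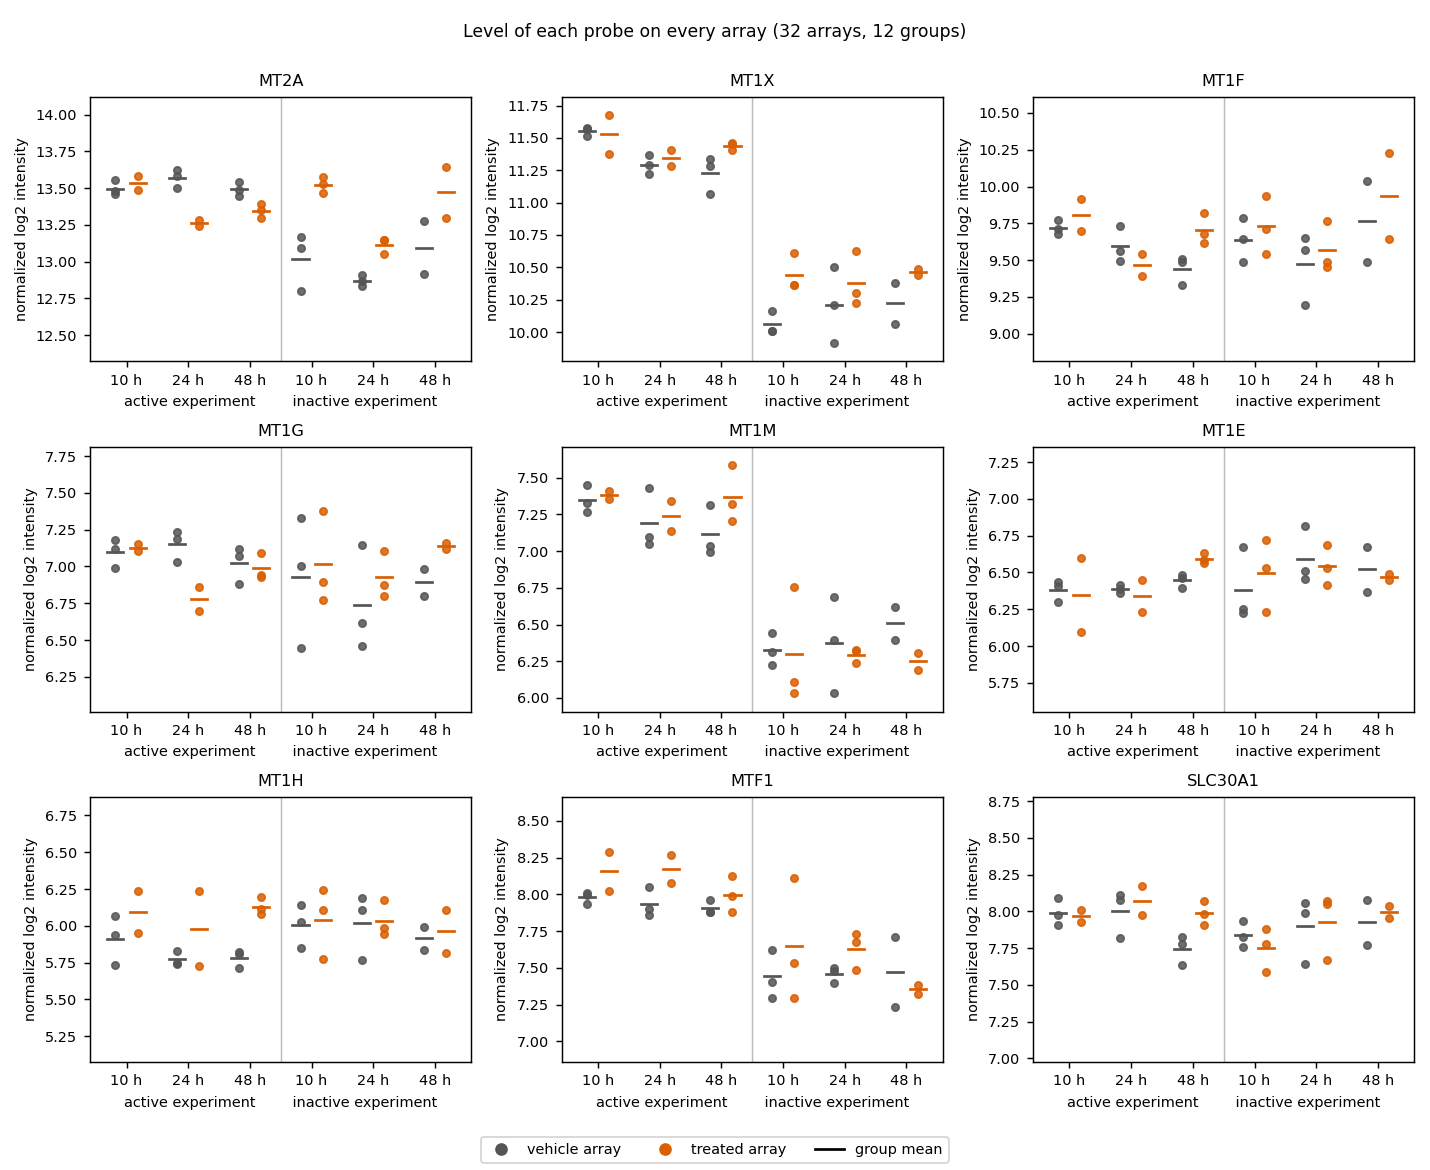
Normalized log2 intensity of each member's probe on every array, by experiment and time, with vehicle arrays in grey, treated arrays in orange and a line at each group mean. The MT2A panel shows treated arrays below vehicle arrays at 24 h and 48 h of the active compound and above them at all 3 times of the inactive compound.

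MT2A is an abundant metallothionein of most human tissues. Each array read the RNA of a whole culture, so fewer cells with a transcript and less transcript in each cell cannot be told apart. At 10 h of the active compound its level was 13.58 and 13.49 on the treated arrays against 13.55, 13.48 and 13.46 on the vehicle arrays. At 24 h it was 13.28 and 13.24 against 13.62, 13.58 and 13.50. At 48 h it was 13.39, 13.35 and 13.30 against 13.54, 13.49 and 13.45. The groups overlapped at 10 h, and at 24 h and 48 h each treated array was below each vehicle array. The changes were 0.04 at 10 h, -0.31 at 24 h and -0.15 at 48 h, and none passed the test at an adjusted p of 0.05 (limma with Benjamini-Hochberg adjustment over the 10598 genes, adjusted p = 0.857, 0.0510 and 0.229). The average over the times was -0.14 (SE 0.05, limma, adjusted p = 0.0519). Both the 24 h and the average value lay so close to the threshold that other settings passed it: at 24 h the adjusted p was 0.0198 without background correction and 0.0336 on the authors' own log2 values.

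The level of MT2A at 10 h of the inactive compound was 13.57, 13.53 and 13.47 on the treated arrays against 13.17, 12.80 and 13.09 on the vehicle arrays. At 24 h it was 13.15, 13.15 and 13.05 against 12.83, 12.87 and 12.91. At 48 h it was 13.30 and 13.64 against 12.92 and 13.28. Each treated array was above each vehicle array of its time, and at 48 h by a margin far smaller than the gap between the 2 arrays of a group. The change was 0.50 at 10 h (SE 0.13), 0.25 at 24 h (SE 0.13) and 0.37 at 48 h (SE 0.16). On average it was 0.37 (SE 0.08), a 1.30-fold higher level, with an adjusted p of 0.736 (limma), and only 3 genes of the 10598 had a smaller p. Without the 4 arrays of doubtful time the change was 0.57 at 10 h and 0.30 at 24 h, and the average was 0.41 (limma, adjusted p = 0.591). Vehicle and treated arrays that share a time and a run of title letters formed 8 pairs. The difference within a pair was positive in 8 of 8, from 0.14 to 0.73, 2 of these pairs being of doubtful arrays. How many of all genes were positive in 8 of 8 pairs was not counted. With these pairs as a block the adjusted p of the average was 0.0520 (limma), just short of the threshold, and in the fit of all 32 arrays, which shares the spread between the experiments, it was 0.00756 (limma).

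The difference between the compounds was tested in 1 model of all 32 arrays with a weight for each experiment and no term for the pairs. For MT2A the response to the active compound minus the response to the inactive one was -0.51 on average over the times (SE 0.09, 95% interval -0.69 to -0.33), and it passed the test (limma, adjusted p = 0.0041). In this comparison 19 of 10598 genes were called, which is 0.179%, and MT2A was 1 of the 7 members tested and the fifth by p of all genes. At the single times the difference was -0.46 at 10 h, -0.55 at 24 h and -0.52 at 48 h, of similar size, and none passed (limma, adjusted p = 0.394, 0.345 and 0.445). Without the 4 arrays of doubtful time the average was -0.55 (limma, adjusted p = 0.00374). With arrays scaled to a common median in place of quantile normalization it was -0.43 and did not pass (limma, adjusted p = 0.384). The compounds were run as separate experiments, so a difference between compounds and one between experiments cannot be told apart. The raw intensity of MT2A ran from 12458 to 22180 in the active-compound experiment, where the brightest probe of an array read between 36737 and 50262, and from 4485 to 9801 in the inactive-compound experiment, where it read between 20158 and 30022.

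**Figure D3:**
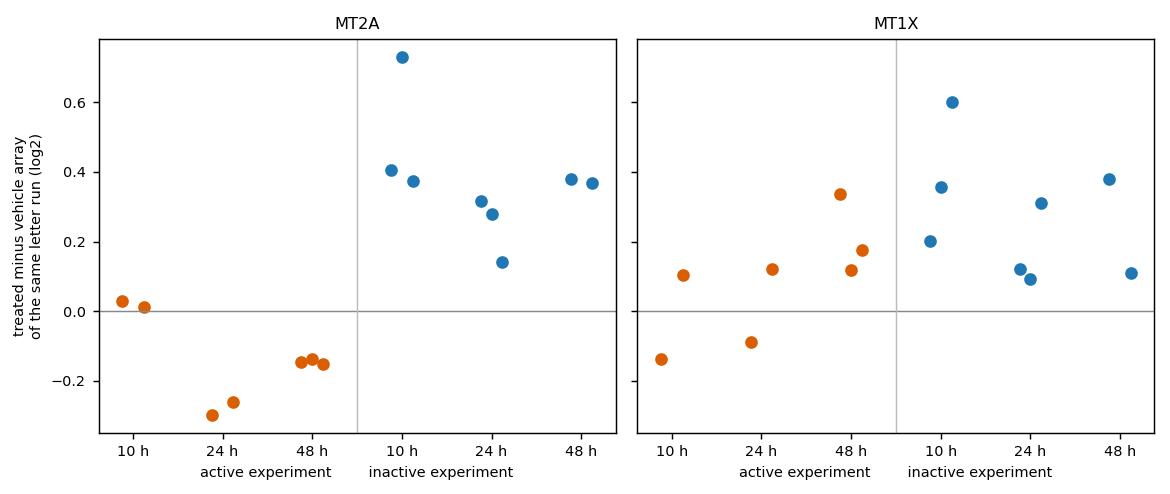
Difference in log2 level between the treated and the vehicle array of the same time and letter run, for MT2A and MT1X, with the active-compound experiment in orange (7 pairs) and the inactive-compound experiment in blue (8 pairs). For MT2A all 8 inactive-compound pairs lie above 0, from 0.14 to 0.73, and 2 of 7 active-compound pairs do. The share of all genes with such counts was not computed.

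MT1X, the second brightest metallothionein probe, gave a level under the inactive compound at 10 h of 10.36, 10.36 and 10.61 on the treated arrays against 10.16, 10.00 and 10.01 on the vehicle arrays. At 24 h it was 10.62, 10.30 and 10.23 against 10.50, 10.21 and 9.91. At 48 h it was 10.44 and 10.49 against 10.06 and 10.38. The treated arrays lay above the vehicle arrays at 10 h and at 48 h, and the groups overlapped at 24 h. The average change was 0.27 (SE 0.10) and did not pass (limma, adjusted p = 0.994), it was 0.21 without the arrays of doubtful time, and the difference within a pair was positive in 8 of 8 pairs, from 0.09 to 0.60. MT2A and MT1X were the members with a positive difference in every pair. Over the 7 members the number of positive pairs ran from 2 of 8 for MT1M, whose probe was dim in that experiment, to 8 of 8. How many of all genes had 8 of 8 was not counted.

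Under the active compound MT1X read 11.38 and 11.68 at 10 h against 11.51, 11.57 and 11.57 under vehicle, with overlap. At 24 h it read 11.28 and 11.41 against 11.22, 11.37 and 11.29, again with overlap. At 48 h the treated arrays read 11.41, 11.45 and 11.46 against 11.07, 11.33 and 11.28, and each treated array was above each vehicle array. The change at 48 h was 0.21 (SE 0.09) and did not pass (limma, adjusted p = 0.139), and the average was 0.08 (limma, adjusted p = 0.393). The difference between the compounds for MT1X was -0.19 on average (95% interval -0.41 to 0.04, limma, adjusted p = 0.662). That interval includes 0, and whether MT1X and MT2A differ from each other in this was not tested.

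MT1G, a metallothionein read by a probe of low signal, was the one member called against vehicle. At 24 h of the active compound it read 6.70 and 6.86 on the treated arrays against 7.03, 7.23 and 7.18 on the vehicle arrays, with no overlap. The level fell by 0.37 on the log2 scale (SE 0.10, limma, adjusted p = 0.0453), which was the 190th smallest p of the 203 genes called at that time. At 10 h and 48 h its groups overlapped, with changes of 0.03 and -0.04. The change at 24 h minus that at 10 h was -0.40 and did not pass (limma, adjusted p = 0.184). The call at 24 h held with 1 of the 5 arrays of that time left out, vehicle replicate 1, and was lost with any of the other 4 left out, on the authors' log2 values (adjusted p = 0.0587) and with median scaling (limma, adjusted p = 0.185). The deposited intensity was only 161 and 155 on the treated arrays, and the size of the fall depended on the background correction, from -0.27 without it to -0.51 with an offset of 16. The inactive compound gave an average change of 0.18 (SE 0.13), positive in 6 of 8 pairs, and of 0.20 without the arrays of doubtful time.

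MT1F and MT1M, further metallothioneins, read higher at 48 h of the active compound without passing the test. For MT1F the treated arrays read 9.82, 9.68 and 9.61 against 9.51, 9.49 and 9.33, with no overlap, a change of 0.26 (SE 0.09, limma, adjusted p = 0.0599), which passed without background correction (limma, adjusted p = 0.0420). For MT1M they read 7.59, 7.21 and 7.32 against 7.31, 7.03 and 6.99, with overlap, a change of 0.26 (SE 0.11, limma, adjusted p = 0.151). The changes of MT1F at 10 h and 24 h were 0.09 and -0.13, and those of MT1M 0.03 and 0.05. Averaged over the inactive compound's times the change was 0.12 for MT1F and -0.12 for MT1M, with 95% intervals that include 0 for both. Without the arrays of doubtful time these averages were 0.12 and -0.24. MT1F had 7 of 8 positive pairs there. MT1M had 2 of 8, but its deposited intensity there was only 113 to 150, as dim as the dropped MT1E probe (119 to 169). Its signs there are therefore not read.

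The probes of MT1E and MT1H, which were below the filter, were also fitted without it. MT1E changed by at most 0.15 in size against vehicle in any group, with no adjusted p under 0.05. MT1H read 6.11, 6.08 and 6.19 at 48 h of the active compound against 5.71, 5.81 and 5.82, with no overlap. Its average under the active compound was 0.25 (SE 0.07, limma on all named genes, adjusted p = 0.0478). A probe at that place among all probes is near the floor of the array, and no detection limit was used here, so the size of that value is not read further.

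MTF1, the zinc-sensing activator of the other members, read 8.29 and 8.02 at 10 h of the active compound against 8.01, 7.94 and 7.99 under vehicle. At 24 h it read 8.07 and 8.27 against 7.86, 8.05 and 7.90. The treated arrays lay above the vehicle arrays at both times, by a narrow margin at each, and the groups overlapped at 48 h. The changes were 0.18, 0.24 and 0.09 at the 3 times, and the average of 0.17 (SE 0.06) was just short of the threshold (limma, adjusted p = 0.0518). Under the inactive compound its average change was 0.09 (SE 0.11), and 0.05 without the arrays of doubtful time, with arrays from 7.29 to 8.11 in the treated 10 h group alone.

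SLC30A1, the zinc exporter, read 7.91, 8.07 and 7.99 at 48 h of the active compound against 7.64, 7.83 and 7.78 under vehicle, with no overlap. The change was 0.24 (SE 0.09) and did not pass (limma, adjusted p = 0.0961). The vehicle arrays at 48 h had the lowest mean of the 6 groups of that experiment, 7.75 ± 0.10 (SD, n = 3) against 7.99 ± 0.09 (SD, n = 3) in vehicle at 10 h, while the treated arrays at 48 h, at 7.99 ± 0.08 (SD, n = 3), overlapped with those of the other 4 groups. At 10 h and 24 h the change was -0.02 and 0.07. Under the inactive compound the average was 0.00 (95% interval -0.19 to 0.20), with 5 of 8 pairs positive, and -0.0029 without the arrays of doubtful time.

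**Figure D4:**
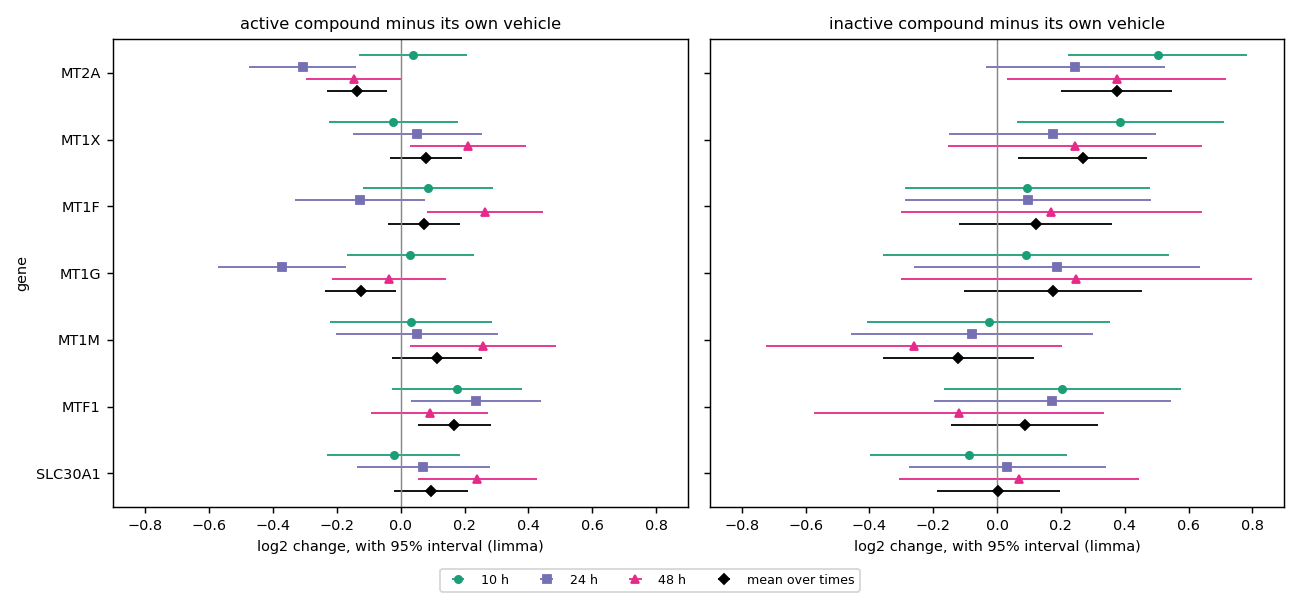
Change of each of the 7 tested members against the vehicle arrays of the same experiment, at each time and on average over the times, with 95% intervals from limma that are not adjusted for the number of genes. The MT2A intervals of the average lie below 0 for the active compound (-0.14) and above 0 for the inactive one (0.37).

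The counts of members called are given beside the share of all genes called. Under the active compound 0 of 7 members were called at 10 h, where 1.65% of all genes were, 1 of 7 at 24 h (1.92%), 0 of 7 at 48 h (9.79%) and 0 of 7 on average (10.9%). Under the inactive compound 0 of 7 members and 0 of the 10598 genes (0%) were called at any time or on average by limma. These fits did not use the pairs. In them p before adjustment was below 0.05 for 523, 110 and 155 genes at the 3 times and for 450 on average. Of those 450 genes 2 were members, MT2A and MT1X. The difference between the compounds was called for 0 of 7 members at 10 h (0.0189% of genes), 24 h (0.0283%) and 48 h (0.0189%). The change of the active compound's effect between 10 h and 24 h was called for 0 of 7 members (0.717%), and that between 24 h and 48 h for 0 of 7 (0.387%).

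The median change of the 7 members at 48 h of the active compound was 0.21, where that of all genes was -0.01, and 5 of 7 were positive (48.5% of all genes). At 10 h and 24 h the medians were 0.03 and 0.05. For the inactive compound they were 0.09, 0.17 and 0.17, where those of all genes were -0.0017, -0.0018 and -0.0004. There 5, 6 and 5 of 7 members were positive, beside 49.5%, 49.4% and 49.8% of all genes. These counts include MT1M, whose signs in that experiment are not read. All treated arrays were above all vehicle arrays for 1 of 7 members, MTF1, at 10 h of the active compound (15.0% of genes) and at 24 h (15.0%), and at 24 h all were below for MT2A and MT1G (15.1%). They were above for 3 of 7 members at 48 h of the active compound, MT1F, MT1X and SLC30A1, where 13.9% of genes were, and all were below for 1, MT2A, where 15.0% were. At 10 h of the inactive compound all were above for 2 members, MT2A and MT1X (3.73% of genes), as were those of MT2A at 24 h (2.65%) and those of MT2A, MT1X and MT1G at 48 h (13.6%). All were below at 48 h for MT1M (13.7%), whose probe was dim in that experiment. MT2A did not overlap with its vehicle arrays at 5 of the 6 comparisons by time, below them for the active compound and above them for the inactive one. How many of all genes did so was not counted, so the count is not read as particular to MT2A.

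In vehicle cells 0 of 7 members were called between 10 h and 24 h of the active-compound experiment (1.3% of genes) and 0 of 7 between 24 h and 48 h (2.87%). The vehicle values that came nearest were MT1X, -0.26 from 10 h to 24 h (limma, adjusted p = 0.155), and SLC30A1, -0.25 from 24 h to 48 h (limma, adjusted p = 0.13). In the inactive-compound experiment 0 of 7 members and 0% of genes were called between the same times, and 3 genes were called between 10 h and 24 h without the arrays of doubtful time. The order of the 6 groups of MT2A in the active-compound experiment ran from vehicle at 24 h, 13.57 ± 0.06 (SD, n = 3), down to treated at 24 h, 13.26 ± 0.03 (SD, n = 2). Its 4 highest groups overlapped each with the next, and the treated groups at 48 h and 24 h lay apart below them. In the inactive-compound experiment the order ran from treated at 10 h, 13.52 ± 0.05 (SD, n = 3), down to vehicle at 24 h, 12.87 ± 0.04 (SD, n = 3), and the 3 vehicle groups had the lowest 3 means. The treated group at 24 h (13.05 to 13.15) overlapped with vehicle at 48 h (12.92 to 13.28) and at 10 h (12.80 to 13.17).

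The vehicle level itself differed between the experiments for several members. MT1X read 11.07 to 11.57 on the 9 vehicle arrays of the active-compound experiment and 9.91 to 10.50 on the 8 of the inactive-compound experiment, a difference of 1.20 between the means that was exceeded by 0.189% of genes. MT2A differed by 0.54 and MTF1 by 0.49. For MT1X, MT2A and MTF1 every active-experiment array was above every inactive-experiment one, as for 11.2% of genes. MT1M separated too, by 0.83, but it passed the filter only through the active-compound experiment and is not set beside that share. Its median level was 7.32 there and 6.31 in the other experiment, below the mean of the dropped MT1E probe, 6.46. Its deposited intensity was only 113 to 150 over the inactive-compound arrays. The MT1M difference ran from 0.59 without background correction to 1.21 with an offset of 16, so its size is not read. The separation of MT1X, MT2A and MTF1 held under all scalings tried, with MT2A at 1.42 and MT1X at 1.93 under median scaling. For MT1F and SLC30A1 the difference was -0.02 and 0.03, and it was 0.65 and 0.47 under median scaling, so its direction for MT1F depends on the scaling. The vehicle groups differ in experiment as well as in any culture condition, and these cannot be told apart.

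Other genes of zinc and copper handling, in lists chosen with earlier results of these data known, were read beside the members. Of the 5 further zinc exporters of the SLC30 family that were tested, 0 were called in any comparison. Of 10 zinc importers of the SLC39 family 2 fell at 48 h of the active compound, SLC39A11 by 0.33 and SLC39A10 by 0.39 on the log2 scale (limma, adjusted p = 0.0116 and 0.017). At that time 9.79% of all genes were called and 515 of the 10598 fell. Of 11 genes of copper handling COMMD1, which takes part in copper transport, fell by 0.37 at 10 h (limma, adjusted p = 0.0487). SLC31A2, a copper transporter of endosomes, rose by 0.33 at 48 h (limma, adjusted p = 0.00684), and SLC31A1, the main copper importer of the plasma membrane, rose by 0.28 on average (limma, adjusted p = 0.00457). Each was 1 of 11 called, in comparisons where 1.65% (10 h), 9.79% (48 h) and 10.9% (average) of all genes were called. At 48 h and on average the copper genes were thus near the share of all genes. Of 11 further genes named as metallothioneins or after them, 4 had a probe, 1 passed the filter and 0 were called in any comparison.

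Lists of stress genes, also chosen with earlier results of these data known, were read beside the members in the same way. Their counts are a description and not a test of the lists. Of 15 genes of the NRF2 and glutathione response, which includes enzymes against oxidants, 6 rose at 10 h, when 58 of the 10598 genes tested rose. HMOX1, heme oxygenase, read 11.12 and 10.64 at 10 h against 7.51, 7.15 and 7.52 under vehicle, so that both treated arrays were far above all vehicle arrays. It rose by 3.49 (SE 0.12, limma, adjusted p = 2.37e-15), and GCLM, which modifies the rate-limiting enzyme of glutathione synthesis, rose by 1.02. TXNRD1, thioredoxin reductase, rose by 0.72 and AKR1B10, an aldo-keto reductase, by 0.59. At the same 10 h the changes of the 7 members lay between -0.02 and 0.18, with none called.

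At 24 h and 48 h 5 of these 15 genes rose at each time, when 120 and 523 of all genes rose, and 1, PIR, fell at 48 h. Of 12 cytosolic heat shock genes 6 fell at 48 h, when 515 of the 10598 genes fell, among them the chaperones HSPA1A by 0.54 and HSPA1B by 0.44, their co-chaperone BAG3 by 0.46 and DNAJB1 by 0.33. Of 9 genes that glucocorticoids raise, 3 rose at 24 h and at 48 h, beside the same 120 and 523 of all genes. These were the phosphatase DUSP1, by 1.08 and 1.18, the kinase SGK1, by 0.53 and 0.76, and ERRFI1, a feedback inhibitor of EGF receptor signalling, by 0.58 and 0.54 (limma, adjusted p from 2.5e-08 to 0.0139). Vehicle levels moved as well: DUSP1 changed by -0.43 from 10 h to 24 h and -0.38 from 24 h to 48 h (limma, adjusted p = 0.0289 and 0.0403). Vehicle SGK1 changed by -0.40 from 24 h to 48 h (limma, adjusted p = 0.027), and no vehicle change of ERRFI1 was called. Other genes of these lists were called in vehicle too. From 10 h to 24 h HSPA1A changed by -0.50 and NFKBIA by -0.33. From 24 h to 48 h AKR1B10 changed by 0.68, TSC22D3 by 0.51 and KLF9 by 0.45. Under the inactive compound 0 members of any of these lists were called at any time or on average. What part any of these stress genes had in the values of the members was not tested.

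Within each experiment the members followed each other to different degrees, given as a description over 16 arrays that share normalization and groups. The Pearson correlation of MT2A with MT1G was 0.73 over the active compound's arrays and 0.55 over the inactive compound's. MT1F and MT1M had 0.81 and -0.21, but the MT1M probe read only 113 to 150 in the inactive-compound experiment, so the second sign is not read. MT2A and MT1X had -0.17 and 0.56, and MT2A and SLC30A1 had -0.31 and -0.26. Over the 32 arrays, each value centred on its experiment's mean, the genes most like MT2A were BICRAL (0.66), COX17 (0.64), ZBTB14 (0.62), TRMT1L (0.62) and MAP3K5 (0.61, with 0.21 in the active-compound and 0.70 in the inactive-compound experiment). Those most like MT1X were TFF2 (0.80), CYTH1 (0.74), FAM174A (0.70), NCSTN (0.69) and MCOLN1 (0.69), and those most like SLC30A1 were TSR2 (0.80), DAW1 (0.78), ADM (0.78), EMC8 (0.76) and THBS1 (0.76). Within the experiments the correlations of these 15 genes ran from 0.21 to 0.79 for the active compound and from 0.65 to 0.93 for the inactive one. No other member was among the 5 genes most like any of these 3.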

How the data were processed

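Single-colour Illumina arrays of PC-3 cells were analysed, 32 in 12 groups. Per probe, 1 deposited table gives the intensity on a linear scale, and BeadStudio and R 2.12.0 were used per the submitters' processing notes. A second deposited table gives log2 values by the authors for these arrays, and how they were normalized is not stated in the sources used. With limma 3.58.1 in R 4.3.3 the intensities were background-corrected (normexp, offset 50), quantile-normalized across all 32 and log2-transformed. Probes were named from the platform annotation, which gave 18332 of 20589 probes 1 symbol and left 2257 unnamed. Probes in the upper 60% by mean were kept, and the brightest stood for a gene.

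Each experiment's 16 arrays were fitted alone, with a mean for each of its 6 groups. Compounds were compared in a fit of all 32 arrays with arrayWeights by experiment. P-values were adjusted by Benjamini-Hochberg over all 10598 genes at 0.05. The fits were tested on simulated data. All 10 members were named, with HMOX1 as a comparator, up to 4 called genes of each other list by smallest p (all called genes were counted), and the 5 genes most like MT2A, MT1X and SLC30A1. The members and lists were chosen with earlier results of these data known.

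Title letters fall into runs, and a vehicle and a treated array that share a run and a time make a pair. In the inactive-compound experiment the deviations from the group means correlated within all 8 pairs (0.16 to 0.69), so they count as paired. The pairs at 48 h share 1 correlation (0.43), because groups of 2 arrays deviate by equal and opposite amounts. The fits as reported did not use the pairs, so their p-values and intervals for the inactive compound leave the pairing out. The block is an alternative there too, given for the MT2A average. In the active-compound experiment 6 of 7 pairs had correlations over 0.1 and 1 had -0.04 (highest 0.25), so the pairing was not taken as given and the block is an alternative. The alternatives were other background corrections and scalings, the authors' log2 values, no filter, other priors, blocks, and each array left out. Replicate numbers limit precision: groups held 2 or 3 arrays.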

Additional observations from a re-analysis of the deposited data

Results flagged for a closer look

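The response of MT2A differed between the compounds, with the effect of the active compound minus that of the inactive one at -0.51 on the log2 scale on average over the times (limma, all 32 arrays, adjusted p = 0.0041). At 24 h every treated array of the active compound was below every vehicle array of its experiment and time, as for 15.1% of genes. Every treated array of the inactive compound was above its own (2.65% of genes), and the difference was -0.55 (limma, adjusted p = 0.345). At 48 h the same held (15.0% and 13.6% of genes), with a difference of -0.52 (limma, adjusted p = 0.445). For the inactive compound at 48 h each group held 2 arrays, and the lowest treated one read 13.30 against 13.28 for the highest vehicle one. The differences at single times were therefore tested and did not pass.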

How the results depend on the processing

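For MT2A the difference between the compounds on average kept its sign in 42 of 42 alternatives and its call in 41, the exception being median scaling (-0.43, limma, adjusted p = 0.384), and with single arrays left out it ran from -0.57 to -0.45. The fall of MT1G at 24 h of the active compound lost its call in the fit of all 32 arrays (-0.37), without background correction (-0.27), with median scaling (-0.43), on the authors' log2 values (-0.34), without the filter (-0.37) and with the letter run as a block (-0.36). With 1 array left out it ran from -0.45 to -0.29 and held only without vehicle replicate 1. Members called at 24 h of the active compound numbered 1 as reported, 0 in the 32-array fit, with median scaling, without the filter and with the run as a block, 2 with quantile normalization within each experiment and with a trended, robust prior, and 0 to 1 with an array left out. At 48 h they numbered 0 as reported, 1 without background correction (MT1F), 2 with the run as a block (MT1F and MT1M, adjusted p = 0.0166 and 0.0336) and 3 with the title-letter pairs as a replicate block (MT1F, MT1M and SLC30A1, limma, adjusted p = 0.0266, 0.0301 and 0.0406). On average under the active compound they numbered 0 as reported, 2 without background correction and with the run as a block (MT2A, MTF1 in both), 1 with quantile normalization within each experiment (MT2A), on the authors' log2 values (MTF1), without the filter (MT1H), with the trended, robust prior (MT2A) and with the pairs as a replicate block (MT1G). With 1 array left out that count ran from 0 to 1, with 1 without vehicle replicate 3 at 24 h (MT2A) and without treated replicate 2 at 10 h, vehicle replicate 2 or treated replicate 1 at 24 h, or treated replicate 1 at 48 h (MTF1). Between 24 h and 48 h of vehicle in the active-compound experiment it ran from 0 to 1, with 1 without vehicle replicate 1 at 24 h. For the inactive compound on average 1 member, MT2A, was called in the 32-array fit and 0 as reported, also with the pairs as a replicate block. For the compounds compared on average 1 was called as reported and 0 with median scaling.

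Of 63 member values 61 were not called as reported, of which 22 had the opposite sign in at least 1 alternative and 8 were called in at least 1. Over all genes the calls at 48 h of the active compound numbered 1038 (523 higher) as reported, 169 in the 32-array fit and 466 (319 higher) with median scaling. At 24 h they were 203 (120 higher), 16 and 79 (61 higher), at 10 h 175 (58 higher), 25 and 70 (42 higher), and on average 1156 (573 higher), 183 and 568 (400 higher). With 1 array left out they ran from 43 to 1090 at 10 h and from 44 to 145 at 24 h. For the inactive compound on average they were 0 as reported and 8 in the 32-array fit. Each member had 1 probe, so the alternative with another probe of the gene was not run. The number of arrays limits every value, and for the dim probes of MT1E, MT1H, MT1G and MT1M so does signal over background, for which no limit of detection was used. The causes of these differences between settings were not tested.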
